A study of Arabidopsis thaliana with 4 samples.

Results

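The WRKY transcription factors of Arabidopsis thaliana were followed in an hsfb1 hsfb2b double mutant against the Columbia-0 wild type, both heated to 32 °C. The members were 59 loci named as WRKY genes, of 25665 loci with a probe on the array, found by matching the locus name of each non-control probe. Each member had 1 probe, and all 59 carried their WRKY name in the RefSeq table. The family was proposed with the genotype ratios of these arrays known, so every ratio of a member given here describes the choice and is not a test of it.

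WRKY proteins are plant transcription factors that bind the W-box, a DNA element with the core TTGAC, through a zinc finger domain. They are sorted by the number and type of these domains into groups I, IIa to IIe and III. Many are induced within minutes to hours by microbial patterns, wounding or heat, several are targets of mitogen-activated protein (MAP) kinases, and members often regulate each other's genes. HSFB1 and HSFB2B, the factors mutated here, are class B heat shock factors, which act mainly as repressors.

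Seedlings of both genotypes were 5 d old, grown at 23 °C on sucrose-containing agar medium and heated for 30 min by submerging the plates in water. Many mutant and wild-type plants shared 1 plate per replicate, and the RNA of the 2 genotypes of that plate was compared on 1 two-colour array, which gave 4 arrays from 4 biological replicates. The mutant was labelled with Cy3 on the arrays of replicates 1 and 3 and with Cy5 on those of replicates 2 and 4, which are called the 2 orientations. No unheated plants were part of this comparison, the mutant was 1 line carrying both mutations, and RNA came from whole seedlings, in which fewer cells of a type and less RNA per cell cannot be told apart.

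The mutated genes followed the labels on every array. HSFB1 had log2 ratios of mutant over wild type from -5.84 to -5.72, and HSFB2B from -5.12 to -4.38 (limma adjusted p = 2.2e-10 and 1.7e-07). Where the probes lie relative to the mutations was not tested. Per channel, 58.7% to 60.9% of spots stood well above background, and saturation was not seen in any spot. Across genes, which are not independent replicates, the ratios of 2 arrays correlated at 0.80 within an orientation and at 0.35 to 0.49 between orientations. Orientation means or single-array ratios are therefore given for some genes, but not for every gene whose orientations differed. Root markers (CASP1, EXPA7, EXPA18, SCR, PLT1 and RHD6) and green tissue markers (LHCB1.1, LHCB2.1, LHCA3 and RBCS1A) were well above background in both genotypes on all 4 arrays. Of 6 root markers 4 were higher in the mutant and 0 lower, beside 16.6% higher and 13.1% lower of all genes tested. CASP1 (0.48), EXPA7 (0.52), EXPA18 (0.35) and RHD6 (0.32) were the higher ones, while SCR (-0.055) and PLT1 (-0.02) were not called. The median log2 ratio of the 6 was 0.33, with medians of 0.19 to 0.40 by array. Of 4 green markers 1 was higher and 2 lower, with medians of -0.51 and -0.50 on the arrays with the mutant in Cy3 and 0.41 and 0.11 on the others. The part of tissue makeup in the WRKY ratios was not tested.

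WRKY40, WRKY18, WRKY46, WRKY53 and WRKY33 had the highest ratios of the family in the mutant, while most members had ratios near 0. Of the 59 members, 51 were bright enough to be tested. At an adjusted p under 0.05 (limma, Benjamini-Hochberg over all 19314 genes tested), 18 of the 51 were higher in the mutant, 2 were lower and 31 were not called. Over all genes 29.8% were called, 16.6% as higher and 13.1% as lower, against 39.2%, 35.3% and 3.92% of the members tested. Because the members were chosen with this contrast known, nothing is read from these shares. The median log2 ratio of the members tested was 0.08, beside 0.0006 over all genes tested, and 36 of 51 members (70.6%) lay above 0, beside 50.3% of all genes.

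**Figure D1:**
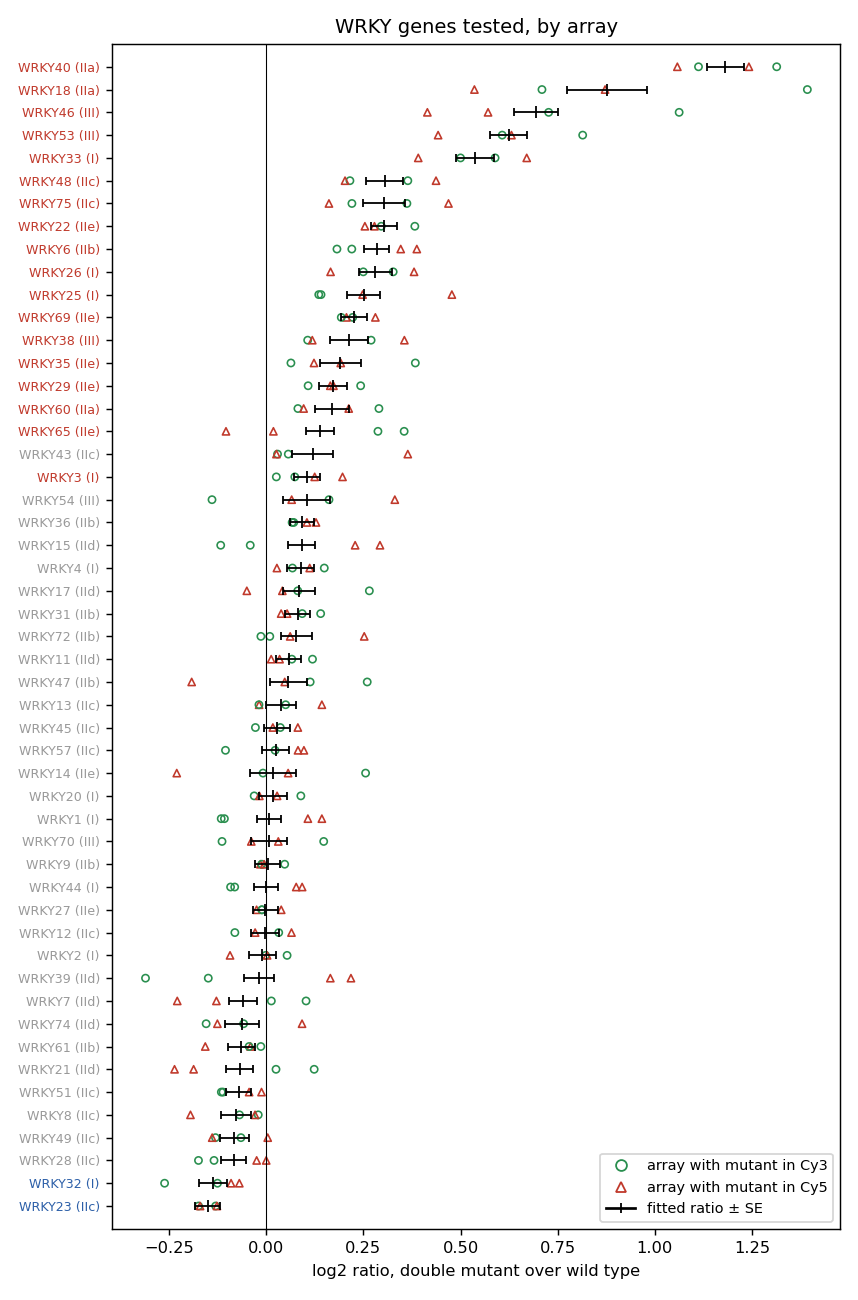
Log2 ratio of double mutant over wild type for the 51 WRKY genes tested, with the WRKY group in brackets. Circles are arrays with the mutant in Cy3, triangles arrays with the mutant in Cy5, black marks the fitted ratio ± SE, and gene names in red or blue mark calls as higher or lower. WRKY40 stands furthest to the right at 1.18, and 31 genes in grey were not called.

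Most calls were small. Among the 20 called members the absolute log2 ratio had a median of 0.27, beside 0.19 for all called genes. Of the 51 members tested, 5 were called at an absolute log2 ratio of at least 0.5, beside 366 of all 19314 genes tested. WRKY40 alone of the 51 reached 1, beside 32 of the 19314 genes. Nothing is read from these counts, since the members were chosen with this contrast known. The count at 0.5 ran from 4 to 11 over the alternative settings. It was 8 with the Feature Extraction processed signals, where WRKY48 had 0.65 and WRKY38 0.50, and 11 with the uncentred series values, where WRKY48 had 0.74, WRKY38 0.59 and WRKY6 0.50. WRKY51, which was not called here, was called lower past 0.5 in both. Of the 20 called members 19 had the same sign on all 4 arrays (95%), beside 80.5% of all 5747 called genes. A gene-wise dye effect passed the same threshold for 5 members (9.80%), beside 18.1% of all genes tested.

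The 3 genes of group IIa, which encode closely related proteins that bind each other and act redundantly in pathogen responses, were all called higher. WRKY40 (AT1G80840), a repressor of defence and abscisic acid genes, had log2 ratios of 1.31, 1.06, 1.11 and 1.24 on the arrays of replicates 1 to 4. Its fitted ratio was 1.18 ± 0.05 (SE, n = 4 arrays), which is 2.27-fold, and the means of the 2 orientations were close at 1.21 and 1.15. The normalized signal of its probe was 1750, 2070, 4780 and 3520 in the mutant and 704, 992, 2210 and 1490 in the wild type of the same plates. The mutant was thus higher on every plate, while the lowest mutant signals lay below the highest wild-type signal.

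WRKY18 (AT4G31800), the partner of WRKY40 in defence, had log2 ratios of 1.39, 0.54, 0.71 and 0.87, and a fitted ratio of 0.88 ± 0.10, which is 1.84-fold. Its mean was 1.05 on the arrays with Cy3-labelled mutant RNA and 0.70 on those with Cy5-labelled mutant RNA. Its signals were 4630, 4920, 10300 and 8930 in the mutant and 1760, 3400, 6300 and 4880 in the wild type. The ratio on the replicate 1 array, where the wild type was dimmest, was the highest of the 4, and the groups overlapped across plates. WRKY60 (AT2G25000), the third gene of the group, which WRKY18 and WRKY40 are known to regulate, had a much smaller fitted ratio of 0.17 ± 0.04, with 0.08, 0.10, 0.29 and 0.21 on the 4 arrays. It was no longer called without replicate 3 (0.12).

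Group III, whose members act mainly in salicylic acid defence and leaf senescence, was split. WRKY46 (AT2G46400), which acts with WRKY53 and WRKY70 in resistance to Pseudomonas, had log2 ratios of 0.73, 0.41, 1.06 and 0.57 and a fitted ratio of 0.69 ± 0.06 (1.62-fold). Its mean was 0.89 on the arrays with Cy3-labelled mutant RNA and 0.49 on those with Cy5-labelled mutant RNA, so its size but not its sign differed between the orientations. WRKY53 (AT4G23810), a regulator of the onset of leaf senescence, had 0.61, 0.44, 0.81 and 0.63, with a fitted ratio of 0.62 ± 0.05 (1.54-fold). The signals of WRKY53 were 927, 877, 1470 and 1050 in the mutant and 609, 646, 837 and 681 in the wild type, so that here the genotypes did not overlap even between plates.

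WRKY70 (AT3G56400), which raises salicylic acid responses and lowers jasmonate responses, was not called. Its log2 ratios of 0.15, -0.04, -0.11 and 0.03 lay on both sides of 0, with a fitted ratio of 0.01 ± 0.05. Its signals were high in both genotypes, at 6410, 6900, 8640 and 7310 in the mutant and 5790, 7080, 9350 and 7160 in the wild type, and overlapped fully. WRKY54, the closest relative of WRKY70, had a fitted ratio of 0.10 ± 0.06 and was not called, though it was called higher without replicate 2. That ratio depended on the processing, since with the Feature Extraction processed signals it was at least the 0.80 of WRKY53, again without a call. WRKY54 passed the brightness filter only through the mutant, since 1 of 4 wild-type channels was well above background. WRKY38, a gene that salicylic acid induces and that limits basal defence, had 0.21 ± 0.05 and was called higher, but not without replicate 3. The other 4 members of group III (WRKY30, WRKY41, WRKY55 and WRKY62) were too dim to be tested.

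**Figure D2:**
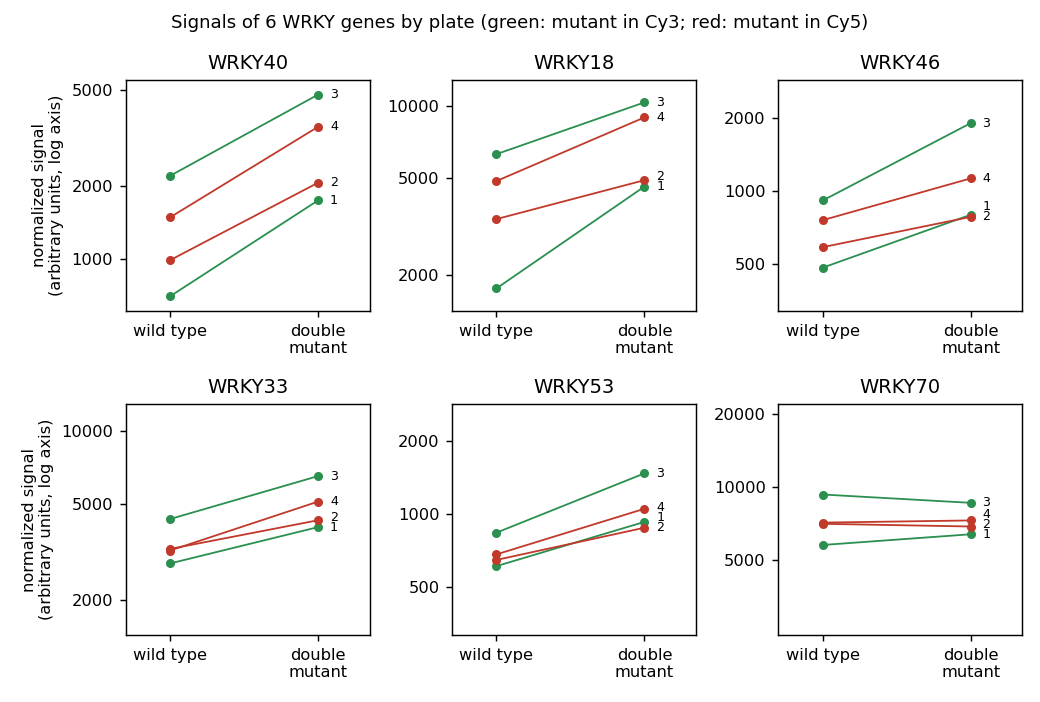
Normalized signal (arbitrary units, log axis) of 6 WRKY genes in the wild type and the double mutant, with a line for each plate numbered by its replicate, green with the mutant in Cy3 and red with the mutant in Cy5. All lines rise for WRKY40, WRKY18, WRKY46, WRKY33 and WRKY53, the lines of WRKY70 are nearly flat, and replicate 3 is the brightest plate in all 6 panels.

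Group I proteins carry a pair of WRKY domains and include targets of MAP kinases. WRKY33 (AT2G38470), a MAP kinase target needed for resistance to necrotrophic fungi and for synthesis of the antimicrobial compound camalexin, had log2 ratios of 0.50, 0.39, 0.59 and 0.67. Its fitted ratio was 0.54 ± 0.05 (1.45-fold), and its signals were 4010, 4280, 6510 and 5110 in the mutant and 2840, 3260, 4330 and 3210 in the wild type. The orientation means were nearly equal at 0.54 and 0.53. WRKY26 and WRKY25, which act with WRKY33 in heat tolerance, had 0.28 ± 0.04 and 0.25 ± 0.04 and were also called higher. Thus all 3 group I genes known from heat tolerance were called higher by small to moderate ratios. WRKY3, which acts in resistance to necrotrophs, had the lowest ratio of any member called higher (0.11 ± 0.03), and that call was kept in 4 of 14 alternative settings. WRKY32 was called lower at -0.14 ± 0.04, with -0.13, -0.09, -0.26 and -0.07 on the arrays. Among the other group I genes tested, WRKY4 had 0.09, WRKY20 0.02, WRKY1 0.01, WRKY44 (TTG2, a regulator of trichomes and the seed coat) -0.0008 and WRKY2 -0.01, none of them called.

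In group IIe 5 of 7 members were called, all higher and all by small ratios. WRKY22 (AT4G01250), which lies downstream of the flagellin receptor FLS2 and its MAP kinases, had 0.30, 0.28, 0.38 and 0.25 on the arrays and a fitted ratio of 0.30 ± 0.03. WRKY29, placed in the same pathway, had 0.17 ± 0.04 and lost its call without replicate 3. Both thus had 1 sign on all 4 arrays. WRKY69 had 0.23 ± 0.03 and WRKY35 0.19 ± 0.05. WRKY65 had 0.29 and 0.35 on the arrays with the mutant in Cy3 but 0.02 and -0.10 on those with the mutant in Cy5. It alone among the called members did not keep 1 sign on all arrays. WRKY35 and WRKY65 were each called in 7 of 14 alternative settings. WRKY14 (0.02) and WRKY27 (-0.0021), a gene that affects symptoms of bacterial wilt, were not called.

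In group IIb only WRKY6 (AT1G62300), a senescence- and defence-linked regulator of phosphate transport, was called, with 0.18, 0.35, 0.22 and 0.39 on the arrays and 0.28 ± 0.03 in the fit. Its signals of 476 to 544 in the mutant and 416 to 431 in the wild type did not overlap. WRKY36, WRKY31, WRKY72, WRKY47, WRKY9 and WRKY61 ran from 0.09 down to -0.06 and were not called, and WRKY42 was too dim.

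Group IIc, the most numerous, went both ways. WRKY48 (AT5G49520), which limits basal defence, had 0.22, 0.20, 0.36 and 0.44 and a fitted ratio of 0.30 ± 0.05. WRKY75 (AT5G13080), a regulator of phosphate starvation responses and root hairs, had 0.36, 0.16, 0.22 and 0.47, with a fitted ratio of 0.30 ± 0.05. WRKY23 (AT2G47260), an auxin-induced gene of root development, was called lower at -0.15 ± 0.03. Its 4 ratios were the most alike of the called members, at -0.17, -0.17, -0.13 and -0.13. Its signals of 446 to 483 in the mutant did not overlap those of 503 to 528 in the wild type. The call was lost without replicate 1 or without replicate 3, where the fitted ratios were still -0.14 and -0.16. WRKY43, WRKY13, WRKY45, WRKY57, WRKY12, WRKY51, WRKY8, WRKY49 and WRKY28 ran from 0.12 to -0.08 and were not called. WRKY43 was not well above background in any wild-type channel, so no fold is given for it. WRKY50 and WRKY71 were too dim.

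No gene of group IId, whose members bind calmodulin, was called. All 7 were tested, from WRKY15, a regulator of leaf growth and osmotic stress responses, at 0.09 ± 0.03 to WRKY21 at -0.07 ± 0.03. WRKY15 had positive ratios with the mutant in Cy5 (0.23 and 0.29) and negative ones with the mutant in Cy3 (-0.04 and -0.12), and WRKY39, WRKY21 and WRKY7 also changed sign with the orientation. WRKY11 and WRKY17, which limit basal resistance, had 0.06 and 0.08, WRKY7 and WRKY74 each had -0.06, and WRKY39, a gene linked to heat tolerance, had -0.02. Over the family, 17 of 51 members (33.3%) had orientation means of opposite sign, beside 45.4% of all genes.

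By group, the median log2 ratio was 0.88 in IIa, 0.21 in III, 0.17 in IIe, 0.08 in IIb and 0.05 in I. The medians of IIc (0.01) and IId (-0.02) had no stable sign, being -0.09 for IIc with Feature Extraction processed signals and 0.06 for IId with the uncentred series values. The group III median was the ratio of WRKY38 here, and with the processed signals it was that of WRKY53 (0.80). In that setting WRKY46 had 0.87, WRKY38 0.50 and WRKY70 -0.03, so WRKY54, the last of the 5 genes tested, lay at or above 0.80. Thus the median moved from 1 gene to another, while WRKY70 stayed near 0. The IIb median rose to 0.20 with the processed signals, and the cause was not tested for either group. Genes of a group are not replicates of each other, and no test between groups was made. The counts called in each group stand beside 16.6% higher and 13.1% lower of all genes tested, and nothing is read from them.

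**Figure D3:**
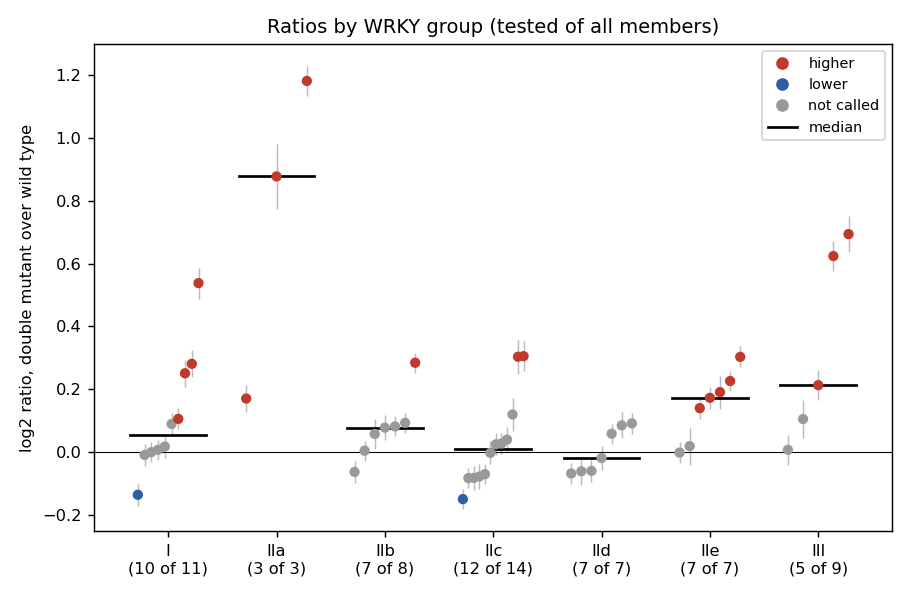
Fitted log2 ratio ± SE of each WRKY gene tested, by group, with the number tested of all members under each group and the group median as a bar. Red points were called higher, blue lower and grey not called. Group IIa has its 3 points at 0.17, 0.88 and 1.18, while the 7 grey points of group IId lie between -0.07 and 0.09.

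The 8 members that were too dim to test (WRKY30, WRKY34, WRKY41, WRKY42, WRKY50, WRKY55, WRKY62 and WRKY71) had single-array ratios between -0.22 and 0.22. Members called in any direction were spread over the chromosomes, with 3 of 10 members on chromosome 1, 7 of 16 on chromosome 2, 1 of 4 on chromosome 3, 5 of 15 on chromosome 4 and 4 of 14 on chromosome 5. The totals by chromosome include the 8 members too dim to test. Shares of these counts thus cannot be set against the 29.8% called of all genes tested. Another 13 WRKY genes of the RefSeq table had probes but were not among the members. Of these 4 were tested, and WRKY24 (0.44 ± 0.07, limma adjusted p = 0.0034), WRKY56 (0.37 ± 0.04, limma adjusted p = 0.00094) and WRKY52 (0.17 ± 0.03, limma adjusted p = 0.0079) were higher and WRKY16 lower (-0.16 ± 0.03, limma adjusted p = 0.0095). WRKY52 and WRKY16 encode immune receptors with an added WRKY domain. These 4 are named because they were all that was tested, after their values were seen.

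Genes with the highest genotype ratios also differed widely between the plates. This measure uses the mean signal of both genotypes on each plate and not their ratio. For WRKY40 this mean differed 2.93-fold between the dimmest and the brightest plate, for WRKY18 2.82-fold and for WRKY46 2.13-fold, all among the widest ranges of the 19314 genes (percentiles 99.7, 99.7 and 99.5). WRKY33 followed with 1.57-fold and WRKY53 with 1.48-fold. The median range of the members was 0.18 on the log2 scale, close to the 0.17 of all genes. A wide range did not always go with a genotype ratio, as WRKY11, singled out after its values were seen, ranged 2.42-fold between plates (4170, 2280, 5630 and 5460 in the mutant and 3980, 2220, 5180 and 5410 in the wild type) with a ratio of 0.06 ± 0.03. WRKY70 ranged 1.48-fold. Across the 51 members, which share the same 4 plates, Spearman's rho between the range and the genotype ratio was 0.363, as a description. Since each plate held both genotypes, the ratios are within plates, and the part of the plates in the size of the ratios was not tested.

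**Figure D4:**
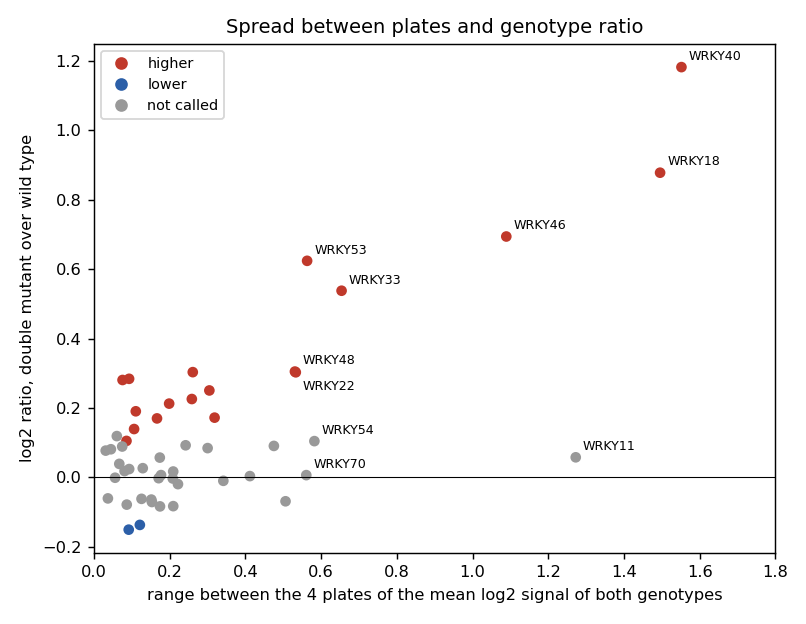
Range between the 4 plates of the mean log2 signal of both genotypes (horizontal) against the fitted log2 ratio of double mutant over wild type (vertical) for the 51 WRKY genes tested, in red where called higher, blue where called lower and grey where not called. WRKY40 and WRKY18 are high on both axes, and WRKY11 has a wide range with a ratio near 0.

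Genes that act before, with or after the WRKY factors were read from lists chosen by function, with earlier results of these data known. Of the 53 listed genes 44 were tested, and 24 were higher, 5 lower and 15 not called, with a median log2 ratio of 0.21. Over all genes tested 16.6% were called higher and 13.1% lower. Because of how the lists were chosen, nothing is read from their counts. Among 11 receptor and MAP kinase genes 4 were higher and 1 lower. FLS2, the flagellin receptor upstream of WRKY22 and WRKY29, was the highest at 0.30 ± 0.03 (limma adjusted p = 0.001), with 0.24, 0.28, 0.30 and 0.36 on the arrays. MKK4, MKK5 and MPK3, kinases of the same cascade named after their values were seen, were higher by 0.21, 0.21 and 0.25. The other 6 genes of this list were not called, with BAK1 at 0.09, BIK1 0.04, MEKK1 0.05, MKK2 0.11, MPK4 -0.10 and MPK6 -0.01. For MKK4 the orientation means were 0.40 with Cy3-labelled mutant RNA and 0.02 with Cy5-labelled mutant RNA, and for MPK3 they were 0.38 and 0.11. Median centring ended the calls of MKK4, MPK3 and MKK5, and a fit with no dye term those of MKK4 and MPK3. MKK1 was lower at -0.16 ± 0.03 (limma adjusted p = 0.014), a call kept in 8 of 14 alternative settings. Of the VQ proteins, which bind WRKY factors, SIB1, a partner of WRKY33, was higher at 0.30 ± 0.06 (limma adjusted p = 0.01), and JAV1, a repressor of jasmonate defence, at 0.16 ± 0.03 (limma adjusted p = 0.011). SIB1 had orientation means of 0.49 and 0.12 and lost its call without the dye term and without replicate 3. JAV1 lost its call without replicate 1 (0.15), without replicate 3 (0.17), after median centring (0.16) and in a fit with no dye term (0.16).

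Of 12 early immune response genes listed, FRK1 was too dim to test. Among the 11 tested, 9 were higher, 0 were lower and 2 were not called, and their median was 0.48. The highest was ERF5, an ethylene response factor, at 0.70 ± 0.03 (limma adjusted p = 4.5e-05). Its mean was 1.02 over the arrays with Cy3-labelled mutant RNA and 0.38 over the other pair, so the size depended on the orientation while the sign did not. CYP81F2, a cytochrome P450 of indole glucosinolate defence, was the lowest called at 0.28 ± 0.04 (limma adjusted p = 0.0027) and lost its call with median centring (0.21). PAD3, the last enzyme of camalexin synthesis and a target of WRKY33, was lower at -0.27 ± 0.03 (limma adjusted p = 0.0011), with -0.13, -0.43, -0.12 and -0.40 on the arrays. Its call was lost without the dye term. It had the opposite sign to WRKY33 on every array, and the other 2 camalexin genes were too dim to test.

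Salicylic acid genes went both ways, with 3 of 10 higher, 3 lower and a median of 0.04. EDS5, the exporter of the salicylic acid precursor, was higher at 0.38 ± 0.03 (limma adjusted p = 0.00039), as were SAG101 and CBP60G. PR5, a pathogenesis-related protein, was lower at -0.57 ± 0.05 (limma adjusted p = 0.00026), with -0.41, -0.60, -0.68 and -0.58 on the arrays, and PAD4 and ICS1 had -0.16 and -0.14, calls kept in 10 and 7 of 14 alternative settings. SAG101, CBP60G, PAD4 and ICS1 are named after their values were seen. The list held 7 JAZ repressors of jasmonate signalling, and JAZ genes outside it were not read. JAZ8 was too dim to test, and all of the other 6 were higher, with a median of 0.58. JAZ1 was the highest of them, with ratios of 1.17, 0.87, 1.04 and 0.94 on the arrays, and JAZ5 the lowest at 0.30 ± 0.06 (limma adjusted p = 0.013). That order depended on the processing, since with processed signals both had about the same ratio (1.16 for JAZ1 and 1.17 for JAZ5). JAZ5 had 0.19 without replicate 4, and it lost its call without replicate 1, without replicate 3 and without the dye term. The fit of JAZ9 rests on 3 arrays, because its spot was marked as an outlier on the array of replicate 3. Neither TTG1 nor GL2, partners of WRKY44, was called.

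**Figure D5:**
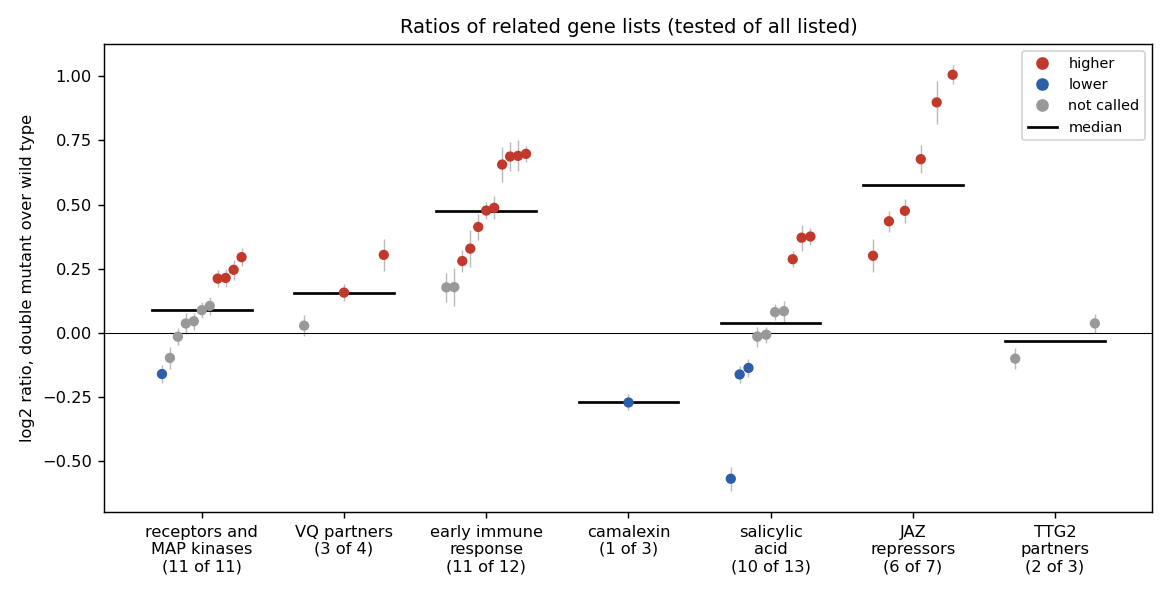
Fitted log2 ratio ± SE of the tested genes of 7 related lists, with the number tested of all listed under each name and the list median as a bar. Red points were called higher, blue lower and grey not called. All 6 JAZ points and 9 of 11 early immune response points are red, while the salicylic acid genes lie on both sides of 0.

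The counts changed when single plates were left out, which also leaves fewer arrays for the fit, and with the normalization. Without replicate 3, 12 members were called higher and 0 lower (23.5% of those tested), while 11.7% of all genes were called. With each array centred on its median in place of loess, 10 were called higher and 0 lower (19.6%), while 13.2% of all genes were called. These 10 were all among the 18.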

How the data were processed

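RNA of 1 mutant and 1 wild-type sample per plate was hybridised to each of 4 two-colour Agilent arrays. Per the labels, the mutant carried Cy3 in replicates 1 and 3 and Cy5 in replicates 2 and 4. Per the submitters' processing notes, Agilent Feature Extraction 9.1.3.1 read the spots. Signals of spots and of their local background are intensity values (median pixel brightness), deposited without normalization, per the file headers. The processed signals, also intensity values, and the log10 ratio of red over green come from Feature Extraction, per the file headers. The deposited series values are on the natural log scale, as mutant over wild type, since their slopes and correlations with the scanner ratios (0.987 to 0.999 in absolute size) followed the dye of the mutant. How they were centred is not stated, and their column medians for replicates 1 to 4 were 0.0458, 0.0813, 0.107 and -0.0011. For the probes, no genome build is named in the sources used here, so no coordinates are printed, and locus names were matched to RefSeq's TAIR10.1 table for names only.

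The median signals in the files were background-corrected with normexp (offset 50) and normalized within arrays (loess), giving weight 0 to control spots and to spots marked as outliers. Outlier-marked spots (190 to 399 of 37685 per array) were left out and replicate spots averaged to 37478 probes. A gene was tested where its brightest probe was well above background in all 4 mutant or all 4 wild-type channels with at least 3 ratios. Log2 ratios were fitted for all 19314 genes with eBayes in limma 3.58.1 under R 4.3.3, two-sided, and each gene had its own dye effect. Errors are the standard errors of this fit. The array pairs the genotypes. Ratios of dim genes are pulled towards 0 by the offset. Signals per channel are after loess and Aquantile normalization, which leaves them open to dye bias on single arrays. The number of arrays limits the precision. All arrays shared 1 slide and 1 scan, and no batch test of either was possible.

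The members, the lists and the comparisons were chosen with earlier results of these data known. Genes were named by this rule: WRKY33, WRKY40, WRKY53 and WRKY70, the 8 called members with the highest and the 8 with the lowest ratio, the highest and lowest tested member of each group, the highest and lowest called gene of each list, HSFB1 and HSFB2B. Other members are named so that all 59 are accounted for. WRKY groups were assigned from textbook knowledge. Alternatives changed the background correction, the source of the values, the normalization, the dye term, outlier spots, the brightness filter, the probe per gene and the replicates. Sequences and promoter motifs were not analysed here.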

Additional observations from a re-analysis of the deposited data

Results flagged for a closer look

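Of 72 values, for single genes and for group medians, set against Dixon's 95% critical value for 4 arrays, 3 had an array that stood apart from the others, and chance gives about 1 in 20. WRKY43 had a log2 ratio of 0.3643 on the array of replicate 4 and 0.03 to 0.06 on the other 3, and its probe was not well above background in any wild-type channel. WRKY9 had 0.0475 on the array of replicate 1 and -0.02 to -0.01 on the others, within a narrow range in a gene that was not called. JAZ5 had 0.6531 on the array of replicate 4 and 0.16 to 0.22 on the others, all above 0. The cause was not tested for any of them.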

How the results depend on the processing

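WRKY40, WRKY18, WRKY46, WRKY53, WRKY33, WRKY48, WRKY75, WRKY22, WRKY6 and WRKY26 were called higher in all 14 alternatives, WRKY69 in 13, WRKY25 in 12, WRKY38 in 11, WRKY29 and WRKY60 in 10, WRKY35 and WRKY65 in 7 and WRKY3 in 4. WRKY23 was called lower in 10 and WRKY32 in 9. No called value of a named gene changed sign. Another 10 members were called in at least 1 alternative, among them WRKY61 (-0.17, processed signals) and WRKY15 (0.16, uncentred series values). These extra calls came without background correction (5 members), with processed signals (4), with uncentred (6) and centred (4) series values and without replicate 2 (3). Members called higher numbered 10 after median centring, 11 without a dye term and 12 to 20 when 1 replicate was left out. Members called lower numbered 4 without background correction, 5 with processed signals, 0 after median centring, 0 without a dye term and 0 to 2 with a replicate left out. Over all genes, 2078 were higher and 1540 lower with centred series values, 1159 and 1388 when arrays were median-centred, 1242 and 584 in the fit that had no dye term, and 1210 lower with uncentred series values. Leaving out a replicate gave 1438 to 3216 higher and 756 to 2593 lower, lowest without replicate 3. Of all calls 55.8% were higher, against 45.5% after median centring, 79.6% with uncentred series values and 68% without a dye term. The members' median was 0.1481 with uncentred series values, 0.0377 with median centring and 0.0572 without the brightness filter. With uncentred series values the group medians were 0.1257 for I, 0.2761 for IIb, 0.0607 for IId, 0.2688 for IIe and 0.882 for III. With processed signals they were 0.195 for IIb, -0.0883 for IIc and 0.8008 for III, and with centred series values 0.1922, -0.0911 and 0.7981. The IIb median was 0.1034 at offset 0 and 0.0693 to 0.0915 with a replicate left out. The IId median was -0.0594 with median centring and -0.038 to 0.0212 with a replicate left out. The III median was 0.3458 without background correction and 0.0811 without the brightness filter. List genes called lower numbered 3 with uncentred and 3 with centred series values, 2 after median centring, 1 without a dye term and 2 to 5 with a replicate left out. The cause of these shifts was not tested. Each ratio is already paired within an array, so no replicate block could be added. Faint genes limit the rest: 8 members were not tested, and ratios of dim probes are compressed.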
